A study of Mus musculus with 48 samples.

Results

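The subunits of voltage-gated sodium and calcium channels were described in NeuroD1-positive enteroendocrine cells (EECs) of the mouse gut. Members were all genes of the deposited count table whose symbol begins with Cacna, Cacnb or Cacng, or is Scn followed by a number and a or b. This gave 40 genes out of 53465 in the table. They comprise 10 sodium channel alpha subunits, 4 sodium channel beta subunits, 10 calcium channel alpha1 subunits, 4 alpha2delta subunits, 4 calcium channel beta subunits and 8 gamma subunits.

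Voltage-gated sodium channels open on depolarization and carry the upstroke of the action potential, while voltage-gated calcium channels let in the calcium that triggers fusion of hormone granules. The large alpha and alpha1 subunits form the pore. The beta, alpha2delta and gamma subunits are auxiliary and alter trafficking and gating. EECs are electrically excitable, and glucose and other luminal stimuli are known to depolarize them and to trigger release of incretins and other gut peptides.

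The libraries were made from male chow-fed Neurod1-cre-eYFP mice on a C57BL6 background, aged about 20 weeks at surgery. VSG mice had about 70% of the stomach removed (vertical sleeve gastrectomy), sham ad libitum mice had a sham operation with free access to food, and sham weight-matched mice had the sham operation and were matched in weight to the VSG group. All 3 groups were given liquid diet around surgery, and 6 weeks later were fasted overnight and gavaged with glucose at 3 g/kg about 15 min before tissue was taken. EYFP-positive cells were sorted from the top 5 cm of the small intestine (duodenum), the bottom 15 cm (ileum), and the colon with the rectum (colon), after the muscle layer had been removed, and dead cells and immune cells were gated out. Because Cre was driven by Neurod1, the sort collects every type of cell that has expressed this gene, and the fluorescence does not tell EEC types apart. The colon was dissociated with a higher concentration of EDTA than the small intestine, a difference that cannot be told apart from region.

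The 48 libraries came from 17 mice, with 6 VSG libraries, 5 sham weight-matched and 5 sham ad libitum in every region, and 15 mice had a library from all 3 regions. Total counts ranged from 4648651 to 17182463 (median 6713018). Levels are given in CPM, counts per 1000000 of the library total after TMM scaling. All 7 EEC markers were detected in every region, but their levels differed. Mean levels in the duodenum, ileum and colon were 17270, 18000 and 21930 CPM for Chga and 31930, 25840 and 30200 CPM for Chgb. The other 5 were lowest in the colon, with Scg2 at 1092, 412 and 31.6 CPM, Pcsk1 at 935, 754 and 113 CPM, Cpe at 1575, 991 and 530 CPM, Scg3 at 356, 250.5 and 111 CPM, and Neurod1 at 659.6 ± 181, 412 ± 122 and 255 ± 65.1 CPM (SD, n = 16). The duodenum library of sham weight-matched mouse 27 stood apart, with 7 EEC markers summing to 12030 CPM against a median of 56390 CPM. For mouse 12 the codes in the descriptions swap ileum and colon relative to the tissue labels, and the tissue labels were used. No muscle or fibroblast signal was present beyond a few CPM: the 6 smooth muscle markers summed to at most 4.76 CPM and the 4 fibroblast markers to at most 4.095 CPM in any library. Of 10 enteric neuron markers, Hand2 and Nos1 averaged under 1 CPM in every region, and the sums of 66.6 to 370.6 CPM in the duodenum, 109.4 to 271.4 CPM in the ileum and 101 to 311.5 CPM in the colon came mostly from Ret and Snap25. Uchl1 averaged 5.27, 7.83 and 9.94 CPM, Elavl4 1.11, 1.699 and 3.295 CPM and Chat 0.195, 0.156 and 1.149 CPM from duodenum to colon, within the range of many channel genes. Of 5 glia markers only Erbb3 averaged 1 CPM or more. Absorptive and other epithelial RNA was present, with 6 enterocyte markers at a median sum of 5477, 6886 and 394.7 CPM and 5 goblet cell markers at 3425, 3809 and 9022 CPM in the duodenum, ileum and colon. The 4 colonocyte markers were at 20.7, 30.6 and 1130 CPM, carried in the colon by Car1, and the 4 Paneth cell markers at 208, 1836 and 15.1 CPM. The 3 markers of interstitial cells of Cajal were at 81.8, 111 and 215 CPM. Ano1 averaged 6.26, 17.4 and 83.3 CPM and Kit 39.6, 59.8 and 120.6 CPM, while Etv1 fell, at 35.2, 32.15 and 13.3 CPM. Hormone genes also differed with region, for example Gip at 18490, 4783 and 33.8 CPM. The part of cell mixture in the differences below was not tested, and in bulk libraries fewer cells of a type and less RNA per cell cannot be told apart.

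Of the 40 members, 39 had at least 1 count and 25 passed the filter on low counts that left 15126 genes to test. The 15 that did not pass included Scn1a, Scn4a, Scn10a, Scn4b, Cacna1f, Cacna1i, Cacna1s, Cacnb4, Cacng1, Cacng2, Cacng5, Cacng6, Cacng7 and Cacng8, among them the alpha subunits best known from skeletal muscle (Scn4a, Cacna1s) and retina (Cacna1f). The highest regional mean among them was that of the T-type subunit Cacna1i in the colon, 0.626 ± 0.804 CPM (SD, n = 16). Cacng7 had 0 of 345135220 counts, which allows up to 0.00869 CPM at a floor of 3 counts. This floor covers counting error only.

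Levels of different genes were compared per kilobase of exon. In each region, 5 members had higher means than all others, namely the pore subunits Cacna1a, Cacna1h and Scn3a and the auxiliary subunits Cacna2d1 and Cacnb3. In the duodenum their mean levels were 27.6 (Cacna2d1), 26.9 (Cacna1a), 22.2 (Cacna1h), 20.9 (Cacnb3) and 18.2 (Scn3a) CPM per kb, and the next highest was Cacna1d at 2.96. In the ileum the order was Cacnb3 (21.6 CPM per kb), Cacna1a (19.8), Scn3a (14.9), Cacna2d1 (12.4) and Cacna1h (6.33), followed by Scn2b (4.203). In the colon it was Cacnb3 (25.1 CPM per kb), Cacna1h (22.4), Cacna2d1 (15.5), Scn3a (10.2) and Cacna1a (9.58), followed by Cacng4 (6.38) and Cacnb1 (5.04). Single libraries departed from this. In the ileum of mouse 32 Scn2b was at 8.45 CPM per kb against 5.82 for Cacna1h. In the colon of mouse 13 Cacng4 was at 14 CPM per kb against 12.5 for Cacna1a. Neighbors in these orders differed by less than the larger of their SDs, except Cacna2d1 and Cacna1h in the ileum (SDs of 3.74 and 1.496 CPM per kb) and Cacna2d1 and Scn3a in the colon (4.54 and 3.16). These genes lie on GRCm38 at chr8:84388440-84640246 (Cacna1a), chr17:25374285-25433783 (Cacna1h), chr2:65457118-65567627 (Scn3a), chr5:15934691-16374511 (Cacna2d1) and chr15:98630840-98644529 (Cacnb3). Cacna1h shares 158 exonic bases with Tpsg1 on the opposite strand, and since the strand setting of the counting is not given in the sources used here, reads from there cannot be told apart (1678 counts were given to Tpsg1 and 61276 to Cacna1h).

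**Figure D1:**
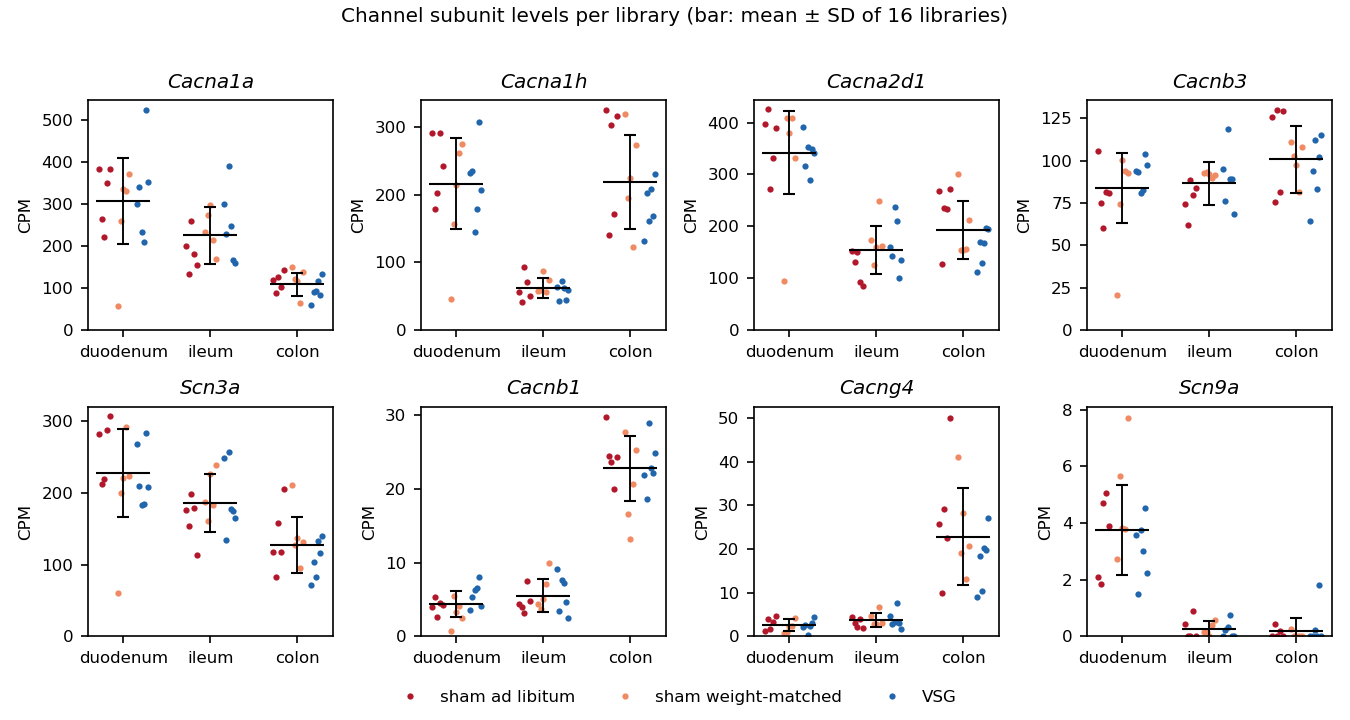
Level of 8 channel subunits in CPM (vertical axis, linear) in each of the 48 libraries by region (horizontal axis), colored by surgery group, with bars for the mean and SD of 16 libraries. Cacna1h was low in the ileum, Cacnb1 and Cacng4 were high in the colon, Scn9a was close to 0 outside the duodenum, and the lowest duodenum point for Cacna1a, Cacna2d1, Cacnb3 and Scn3a is mouse 27.

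The question of where along the gut the channel genes differ was put to contrasts between regions, averaged over the surgery groups (edgeR's quasi-likelihood test with Benjamini-Hochberg adjustment over all 15126 genes, threshold 0.05). Between ileum and duodenum 16 of 25 members differed, 6 higher and 10 lower in the ileum, against 33.8% of all genes tested (17.2% higher and 16.6% lower). Between colon and duodenum 19 of 25 differed, 8 higher and 11 lower in the colon, against 55.0% of all genes (26.8% and 28.3%). Between colon and ileum 15 of 25 differed, 8 higher and 7 lower in the colon, against 49.2% (23.8% and 25.4%). The median size of the log2 fold change was 1.08, 1.25 and 0.81 among the members in these contrasts, and 0.26, 0.41 and 0.35 among all genes. Members such as Scn9a and Cacna2d3 were close to 0 outside the duodenum and passed the filter mainly through their duodenum counts. Their large values follow in part from that, and the counts and medians were not computed without them. The same filter applied to all genes. Directions were mixed in most classes, as for the alpha1 subunits, of which 3 were higher and 4 lower in the ileum than the duodenum. Values after ± beside a log2 fold change are standard errors, and beside a level SDs over 16 libraries.

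**Figure D2:**
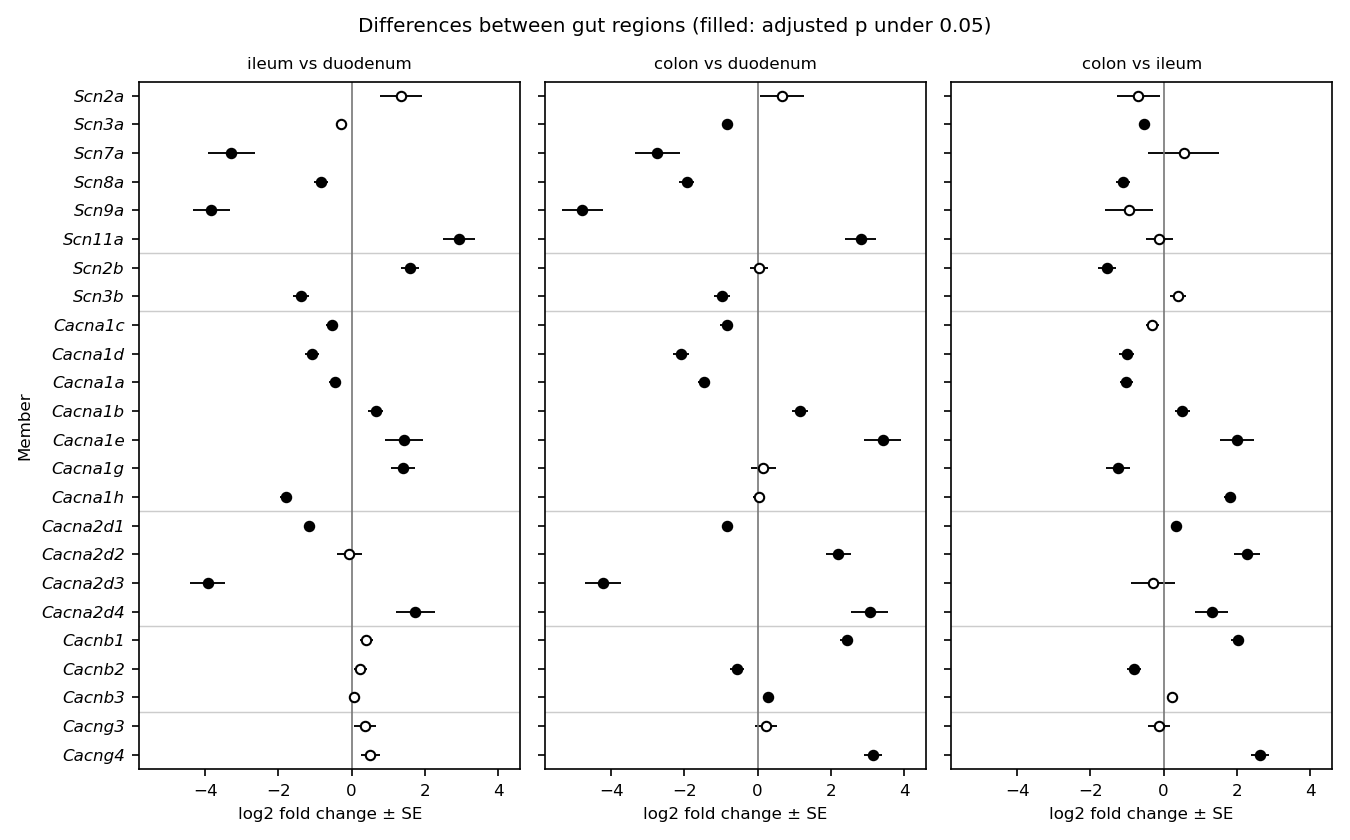
Log2 fold change with standard error (horizontal axis) of 24 of the 25 tested members (vertical axis, grouped by class) in the 3 region contrasts, with filled points for an adjusted p under 0.05. Filled points lie on both sides of 0 in each panel, and the largest positive value, 3.42, is that of Cacna1e between colon and duodenum.

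Promoters are shown for 2 members that were higher in the colon than the duodenum in 15 of 15 mice (Cacnb1, Cacna2d2) and 2 that were lower in 15 of 15 (Scn9a, Cacna2d3), a choice made after their values were seen. Each runs from 250 bases before to 50 after a RefSeq start (GRCm38.p6), 5′ to 3′ on the strand of the gene. Capitals mark the letters CAGNTG, an E-box form that factors of the NeuroD1 family are known to bind, and GGGCGG, a GC box, on either strand.
Cacnb1 (chr11:98022578-98022877, minus strand, 1 of 2 windows): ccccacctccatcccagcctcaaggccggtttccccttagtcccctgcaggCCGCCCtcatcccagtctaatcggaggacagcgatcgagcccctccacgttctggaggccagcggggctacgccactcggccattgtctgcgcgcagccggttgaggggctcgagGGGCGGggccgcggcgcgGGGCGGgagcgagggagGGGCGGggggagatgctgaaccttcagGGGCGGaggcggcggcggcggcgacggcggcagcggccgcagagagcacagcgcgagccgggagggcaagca
Cacna2d2 (chr9:107399630-107399929, plus strand): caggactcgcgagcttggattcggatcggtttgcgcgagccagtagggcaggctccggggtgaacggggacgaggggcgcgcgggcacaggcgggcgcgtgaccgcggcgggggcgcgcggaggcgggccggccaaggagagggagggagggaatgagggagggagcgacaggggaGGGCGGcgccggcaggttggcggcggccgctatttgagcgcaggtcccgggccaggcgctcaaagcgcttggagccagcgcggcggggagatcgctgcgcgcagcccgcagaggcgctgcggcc
Scn9a (chr2:66634913-66635212, minus strand): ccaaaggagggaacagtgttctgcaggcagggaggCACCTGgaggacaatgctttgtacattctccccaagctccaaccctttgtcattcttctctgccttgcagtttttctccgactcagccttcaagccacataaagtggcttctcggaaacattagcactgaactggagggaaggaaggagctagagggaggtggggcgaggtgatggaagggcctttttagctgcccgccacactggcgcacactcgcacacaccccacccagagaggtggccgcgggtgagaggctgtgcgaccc
Cacna2d3 (chr14:29721815-29722114, minus strand): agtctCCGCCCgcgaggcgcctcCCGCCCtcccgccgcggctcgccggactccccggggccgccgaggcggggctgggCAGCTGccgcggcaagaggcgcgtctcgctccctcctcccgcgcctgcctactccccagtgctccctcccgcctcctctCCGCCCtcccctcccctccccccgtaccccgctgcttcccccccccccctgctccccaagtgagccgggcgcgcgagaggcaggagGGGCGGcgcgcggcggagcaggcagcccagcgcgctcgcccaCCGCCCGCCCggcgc
Windows were matched for 30 of 40 members. CAGNTG occurred in 51.4% of 32851 windows of all genes, in 10 of 13 windows of members lower in the colon than the duodenum and in 3 of 8 windows of members that were higher. GGGCGG occurred in 35.7% of all windows, in 6 of the 13 and in 5 of the 8. These are matches of letters and not known sites.

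Among the sodium channel alpha subunits, Scn3a, which encodes a tetrodotoxin-sensitive channel, was the main member in every region. It ranged from 60.3 to 307 CPM (median 220.1) across duodenum libraries, from 113 to 257 CPM (median 178) across ileum libraries and from 72.2 to 211 CPM (median 123) across colon libraries. The groups overlapped, but the colon was lower than the duodenum in 14 of 15 mice, with a log2 fold change of -0.83 ± 0.14 (adjusted p = 2.46e-06), and lower than the ileum, with -0.53 ± 0.14 (adjusted p = 0.00146). Between ileum and duodenum its log2 fold change was -0.29 ± 0.14 (adjusted p = 0.104). The next member was Scn8a, a channel of neuronal axons, which ranged from 4.48 to 43.04 CPM (median 24.04) across duodenum libraries, from 8.23 to 22.1 CPM (median 13.8) across ileum libraries and from 3.201 to 12.1 CPM (median 5.78) across colon libraries. It fell at each step along the gut, with log2 fold changes of -0.84 ± 0.19 from duodenum to ileum and -1.10 ± 0.20 from ileum to colon.

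The minor alpha subunits differed more. Scn9a, known from nociceptive neurons, ranged from 1.498 to 7.71 CPM (median 3.77) in the duodenum, was at most 0.895 CPM in any ileum library and had a median of 0 in the colon, where 1 VSG library (mouse 28) reached 1.83 CPM. Ileum and duodenum did not overlap, and the duodenum was higher in 15 of 15 mice in both contrasts, with log2 fold changes of -3.83 ± 0.51 (adjusted p = 4.18e-08) and -4.79 ± 0.57 (adjusted p = 4.96e-10). Scn7a, which encodes an atypical channel that senses sodium, was low throughout and was also lower distally, at 0.943 ± 0.788 CPM in the duodenum against 0.0922 ± 0.146 in the ileum and 0.181 ± 0.507 in the colon (-3.28 ± 0.65 and -2.74 ± 0.62, adjusted p = 7.1e-05 and 1.98e-04). Scn11a, which encodes a tetrodotoxin-resistant channel of sensory neurons, went the other way. It ranged from 0 to 1.28 CPM (median 0.184) across duodenum libraries, from 0.657 to 6.63 CPM (median 2.55) across ileum libraries and from 0.401 to 5.58 CPM (median 2.105) across colon libraries, and was higher in both distal regions, with log2 fold changes of 2.93 ± 0.43 (adjusted p = 3.1e-07) and 2.81 ± 0.43 (adjusted p = 1.88e-07). Scn2a, a major channel of the brain, was at 0.459 ± 0.442, 1.298 ± 0.918 and 0.836 ± 1.52 CPM and did not pass the threshold in any region contrast (adjusted p from 0.0657 to 0.358 by edgeR).

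Genes that lie next to each other differed in level and in part in pattern. Scn3a, Scn2a, Scn1a, Scn9a and Scn7a lie in a cluster on chromosome 2, from 65457118 to 66784914. Scn3a, Scn9a and Scn7a all had their highest mean in the duodenum, but Scn3a stayed high in the other regions. Scn2a passed the threshold in no region contrast, and Scn1a averaged at most 0.346 CPM and was not tested. On chromosome 9, Scn11a (chr9:119753759-119825456) is next to Scn10a, which averaged at most 0.266 CPM in any region. On chromosome 6, Cacna1c and Cacna2d4 are neighbors and changed in opposite directions between duodenum and colon. With the library index described further on as a covariate, Cacna1c changed sign in this contrast, unless the duodenum library of mouse 27 was also left out. Of the gamma genes Cacng1, Cacng4 and Cacng5 on chromosome 11, from 107703218 to 107915055, Cacng4 was the one that passed the filter, and Cacng6, Cacng7 and Cacng8 on chromosome 7 had 5, 0 and 2 counts in all.

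The sodium channel beta subunits are small proteins with an immunoglobulin-like domain that join the alpha subunit. Scn2b ranged from 2.12 to 11.4 CPM (median 6.82) across duodenum libraries, from 6.41 to 39.4 CPM (median 18.1) across ileum libraries and from 1.71 to 11.8 CPM (median 6.82) across colon libraries. It was thus highest in the ileum, with log2 fold changes of 1.60 ± 0.24 (adjusted p = 7.2e-07) from duodenum to ileum (higher in 14 of 15 mice) and -1.55 ± 0.24 (adjusted p = 5.88e-07) from ileum to colon, while colon and duodenum differed by 0.05 ± 0.25 (adjusted p = 0.8904). Scn3b ranged from 2.602 to 13.6 CPM (median 9.36) across duodenum libraries, from 1.51 to 6.24 CPM (median 3.52) across ileum libraries and from 1.36 to 9.96 CPM (median 4.65) across colon libraries. It was highest in the duodenum, with log2 fold changes of -1.38 ± 0.22 (adjusted p = 1.33e-06) for the ileum and -0.98 ± 0.21 (adjusted p = 1e-04) for the colon. Per kilobase, for duodenum, ileum and colon, Scn2b made up 34.7 ± 16.2%, 74.8 ± 13% and 54.4 ± 17.4% of the summed beta subunits, and Scn3b 44.8 ± 16.6%, 15.03 ± 9.92% and 32.6 ± 16.1%.

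Of the calcium channel alpha1 subunits, Cacna1a forms P/Q-type channels, which couple to vesicle release at many synapses. It ranged from 58.2 to 523 CPM (median 334) across duodenum libraries, from 134 to 390.2 CPM (median 222) across ileum libraries and from 59.6 to 149.6 CPM (median 117) across colon libraries. The colon libraries all lay below the median of the other regions, and the log2 fold change of the colon was -1.47 ± 0.17 (adjusted p = 4.9e-10) against the duodenum and -1.02 ± 0.17 (adjusted p = 2e-06) against the ileum, where the colon was lower in 15 of 15 mice. The difference between ileum and duodenum was smaller, -0.45 ± 0.17 (adjusted p = 0.0306), and this call was lost without mouse 12, 16, 21, 24, 30 or 31 (adjusted p up to 0.0787 by edgeR). With the library index described further on as a covariate, it turned to 0.49. Cacna1b, which forms N-type channels, increased distally instead, at 8.84 ± 3.503, 13.7 ± 5.46 and 19.4 ± 6.62 CPM, with a log2 fold change of 1.16 ± 0.21 (adjusted p = 6.08e-06) between colon and duodenum. Its call between colon and ileum, 0.51 ± 0.21 (adjusted p = 0.0376), was lost without mouse 12, 13, 21, 24, 28, 30 or 31 (adjusted p up to 0.0943 by edgeR). Cacna1e, which forms R-type channels, was lower in level and ranged from 0 to 1.199 CPM (median 0.192) across duodenum libraries, from 0 to 3.42 CPM (median 0.519) across ileum libraries and from 0.419 to 6.12 CPM (median 3.23) across colon libraries. It was higher in the colon than the duodenum in 15 of 15 mice (3.42 ± 0.51, adjusted p = 1.15e-07). The difference between ileum and duodenum, 1.42 ± 0.52 (adjusted p = 0.02996), was lost with the mouse as a block (adjusted p = 0.0707) and without mouse 12, 13, 25 or 31 (adjusted p up to 0.154 by edgeR).

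T-type channels open at voltages close to rest. Cacna1h ranged from 45.5 to 307 CPM (median 223) across duodenum libraries, from 41.7 to 92.6 CPM (median 58.7) across ileum libraries and from 123 to 325 CPM (median 205) across colon libraries. The ileum lay below the colon without overlap and below all duodenum libraries except that of mouse 27, with log2 fold changes of -1.80 ± 0.17 (adjusted p = 5.97e-12) from duodenum to ileum and 1.82 ± 0.17 (adjusted p = 1.07e-12) from ileum to colon, in 14 and 15 of 15 mice. Colon and duodenum differed by 0.02 ± 0.16 (adjusted p = 0.914). The related Cacna1g showed the opposite order at a far lower level, with means of 1.47, 3.94 and 1.68 CPM and log2 fold changes of 1.40 ± 0.33 (adjusted p = 7.07e-04) and -1.25 ± 0.33 (adjusted p = 0.00147) for the same steps.

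The L-type subunits Cacna1c and Cacna1d form dihydropyridine-sensitive channels and were at lower levels than Cacna1a and Cacna1h per kilobase. Cacna1d ranged from 10.7 to 55.4 CPM (median 37.7) across duodenum libraries, from 10.3 to 27.1 CPM (median 18.02) across ileum libraries and from 3.26 to 17.4 CPM (median 7.48) across colon libraries. It fell at both steps, with log2 fold changes of -1.08 ± 0.20 (adjusted p = 2.44e-05) and -1.01 ± 0.21 (adjusted p = 6.24e-05), and was lower in the colon than the duodenum in 15 of 15 mice. Cacna1d shares 589 exonic bases with Chdh on the opposite strand, which had 28490 counts against 8066 for Cacna1d and averaged 71.7, 102 and 77.5 CPM, so its counts are uncertain. Cacna1c was at 34.8 ± 12.9, 24.3 ± 7.23 and 19.1 ± 6.36 CPM and was lower in the ileum (-0.53 ± 0.17, adjusted p = 0.0138) and the colon (-0.84 ± 0.17, adjusted p = 5.46e-05) than in the duodenum. With the library index as a covariate both values turned sign, to 0.38 and 0.21, and within index D501 the mean was 22.2 CPM in 4 duodenum libraries and 26.3 CPM in 7 ileum libraries.

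The summed alpha1 level was 54.8 ± 16.9, 30.5 ± 7.93 and 35.95 ± 10.3 CPM per kb in the duodenum, ileum and colon (SD, n = 16), and its composition differed between them. For duodenum, ileum and colon, Cacna1a made up 48.8 ± 3.05%, 64.3 ± 4.37% and 26.97 ± 2.77% of it, and Cacna1h 40.6 ± 3.31%, 21.2 ± 4.06% and 61.8 ± 3.32%. Within mice, the Cacna1a share was 15.8 ± 3.21 percentage points higher in the ileum than the duodenum, 21.9 points lower in the colon than the duodenum (difference -21.9 ± 2.995) and 37.7 points lower in the colon than the ileum (-37.7 ± 4.17, SD over 15 mice). All 15 mice moved the same way in each comparison, with p = 6.10e-05 in an exact two-sided sign-flip permutation test, the smallest p it can give, and 0.000122 after adjustment over the 12 shares tested. A share does not depend on the scaling of the library. The shares rest on all exonic bases of each gene as its length.

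**Figure D3:**
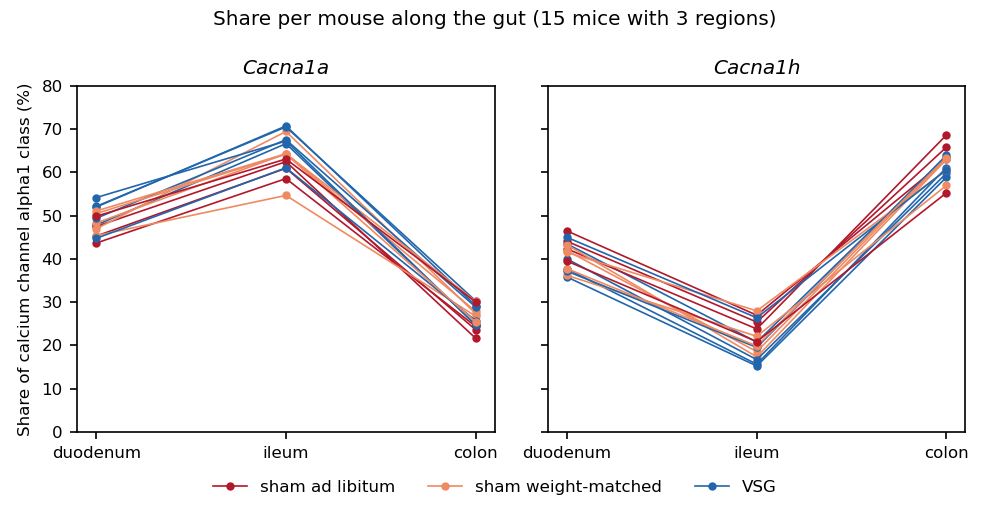
Share of Cacna1a (left) and Cacna1h (right) in the summed alpha1 level, in percent (vertical axis), in the 3 regions (horizontal axis) of the 15 mice with all 3, each line a mouse colored by surgery group. Every line peaks in the ileum for Cacna1a and dips there for Cacna1h, and the lines of the 3 surgery groups are interleaved.

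The alpha2delta subunits are largely extracellular and bring the pore to the plasma membrane, and Cacna2d1 and Cacna2d2 are the known targets of gabapentin. Cacna2d1 ranged from 94.2 to 426 CPM (median 349.9) across duodenum libraries, from 85.9 to 249 CPM (median 152) across ileum libraries and from 111 to 301 CPM (median 182) across colon libraries. Apart from the library of mouse 27, all duodenum libraries lay above all ileum libraries, and the log2 fold change was -1.17 ± 0.14 (adjusted p = 9.8e-09) for the ileum and -0.83 ± 0.14 (adjusted p = 3.51e-06) for the colon. Colon and ileum differed by 0.34 ± 0.14 (adjusted p = 0.0432), a call lost with the mouse as a block (adjusted p = 0.0506) and without mouse 11, 12, 13, 21, 22, 24, 25, 28 or 31 (adjusted p up to 0.119 by edgeR). Cacna2d1 made up 97.8 ± 0.984%, 97.7 ± 1.704% and 94.2 ± 2.52% of its class. Its share was lower in the colon than the duodenum by 3.71 points (difference -3.71 ± 2.54, in 15 of 15 mice, adjusted p = 0.000122 by the exact sign-flip permutation test).

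The 3 minor alpha2delta subunits changed in different directions. Cacna2d3 was highest in the duodenum, from 1.11 to 7.48 CPM (median 3.58) there and at most 0.992 CPM in the ileum and 1.36 CPM in the colon. Ileum and duodenum did not overlap, and the log2 fold changes were -3.94 ± 0.49 (adjusted p = 6.34e-09) and -4.23 ± 0.50 (adjusted p = 3.92e-10) for ileum and colon, in 15 of 15 mice each. Cacna2d2 was highest in the colon, from 2.81 to 10.7 CPM (median 5.03) there against medians of 1.02 and 0.899 CPM in duodenum and ileum. It was higher in the colon in 15 of 15 mice in both contrasts (2.21 ± 0.33 and 2.28 ± 0.34, adjusted p = 1.74e-07 and 2.09e-07). Cacna2d4, known from the retina, increased stepwise at low levels, 0.234 ± 0.265, 0.833 ± 0.872 and 1.801 ± 1.18 CPM (1.74 ± 0.53 and 1.31 ± 0.45, adjusted p = 0.00825 and 0.0142).

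The calcium channel beta subunits are intracellular, bind the alpha1 subunit and regulate its gating. Cacnb3 was the main member, at 83.6 ± 20.7, 86.5 ± 12.9 and 101 ± 19.8 CPM. Its log2 fold change between colon and duodenum, 0.29 ± 0.12 (adjusted p = 0.0365), passed the threshold, and this call was lost without mouse 13, 18, 19, 25, 28 or 29 (adjusted p up to 0.113 by edgeR). Cacnb1, best known from skeletal muscle, ranged from 0.723 to 8.06 CPM (median 4.204) across duodenum libraries, from 2.56 to 9.94 CPM (median 4.72) across ileum libraries and from 13.2 to 29.7 CPM (median 23.2) across colon libraries. All colon libraries lay above all libraries of the other regions, and the log2 fold change of the colon was 2.43 ± 0.18 (adjusted p = 1.08e-16) against the duodenum and 2.03 ± 0.18 (adjusted p = 5.36e-14) against the ileum. Cacnb2, best known from the heart, was at 8.401 ± 2.74, 9.97 ± 3.097 and 5.51 ± 2.34 CPM and was lower in the colon (-0.57 ± 0.19 and -0.81 ± 0.19, adjusted p = 0.00945 and 3.92e-04). The share of Cacnb3 in the summed beta subunits was 92.7 ± 1.51%, 91.6 ± 1.92% and 81.8 ± 3.27%, and that of Cacnb1 4.32 ± 1.398%, 5.13 ± 1.71% and 16.7 ± 3.23%. Within mice the Cacnb3 share was lower in the colon by 10.8 points against the duodenum (difference -10.8 ± 3.90) and 9.75 points against the ileum (-9.75 ± 3.78), in 15 of 15 mice each (adjusted p = 0.000122 by the exact sign-flip permutation test), and differed by -0.998 ± 2.32 points between ileum and duodenum (adjusted p = 0.176).

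**Figure D4:**
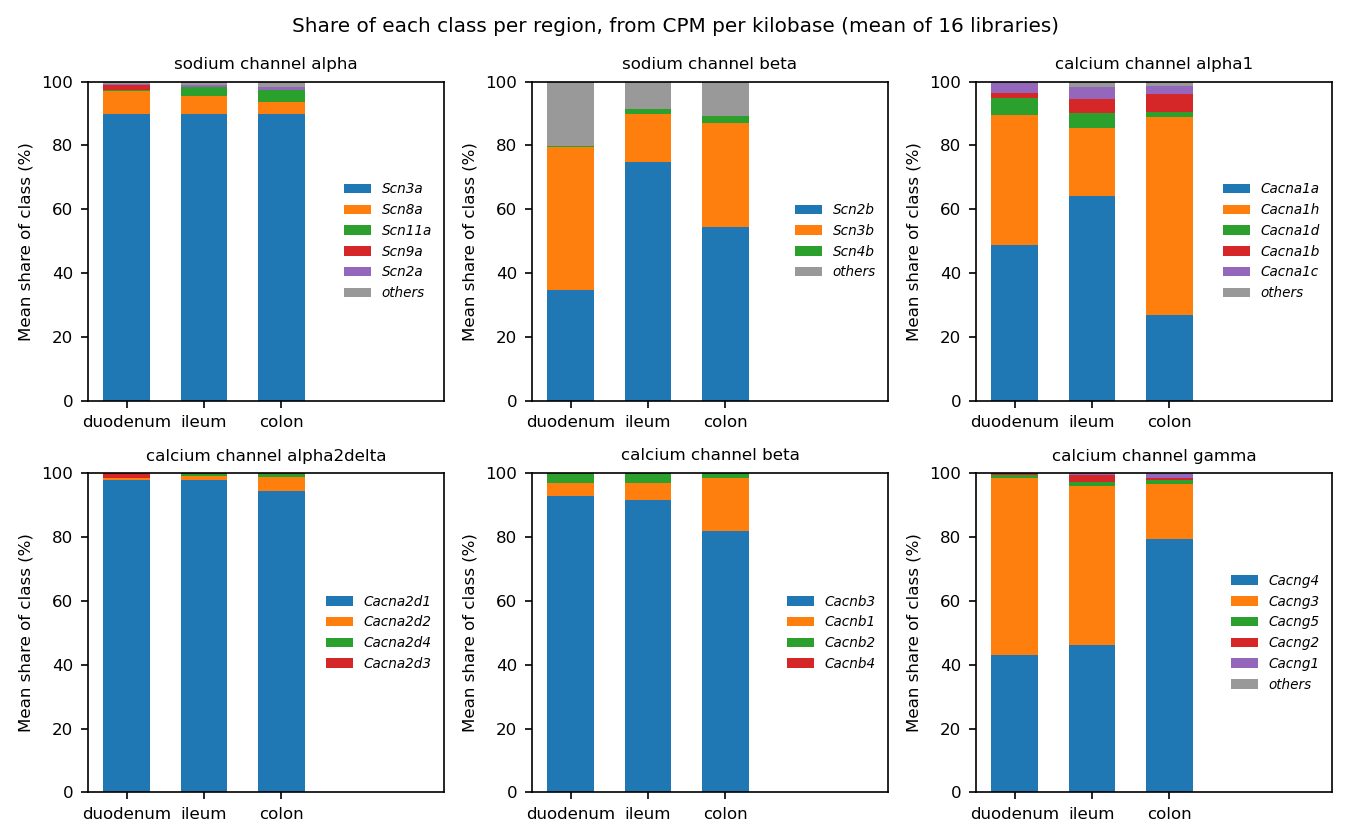
Mean share of the leading members, with the remainder as others, in the summed level of its class in CPM per kilobase (vertical axis, percent), as stacked bars for the duodenum, ileum and colon (horizontal axis, 16 libraries each), with a panel for each of the 6 classes. Scn3a holds close to 90% of the sodium channel alpha class in all 3 regions, while the leading alpha1 subunit is Cacna1a in the duodenum and ileum and Cacna1h in the colon.

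The sodium channel alpha class had the same leader throughout, Scn3a holding 89.8 ± 1.81%, 89.98 ± 2.29% and 89.9 ± 5.06% of the sum. Its share differed by 0.253 ± 2.11, -0.0571 ± 5.61 and -0.31 ± 5.23 points in the 3 paired region comparisons (adjusted p of 0.86, 0.963 and 0.963 by the exact sign-flip permutation test). Without division by length the ileum share exceeded that of the duodenum by 1.99 points (adjusted p = 0.00105).

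Gamma subunits in this family include regulators of AMPA-type glutamate receptors (Cacng2, Cacng3, Cacng4 and Cacng8) besides the muscle subunit Cacng1. Only Cacng3 and Cacng4 passed the filter. Cacng4 ranged from 0.416 to 4.74 CPM (median 2.37) across duodenum libraries, from 1.65 to 7.69 CPM (median 3.1) across ileum libraries and from 8.93 to 50.1 CPM (median 20.4) across colon libraries. The colon libraries lay above those of the other regions without overlap, and Cacng4 was higher there in 15 of 15 mice in both contrasts (3.15 ± 0.25 and 2.64 ± 0.24, adjusted p = 1.77e-15 and 5.23e-13). Cacng3 was at 2.66 ± 1.395, 3.54 ± 2.13 and 3.22 ± 1.65 CPM and passed the threshold in no region contrast (lowest adjusted p = 0.383 by edgeR). Accordingly Cacng4 held 43.1 ± 18.8%, 46.2 ± 16.97% and 79.3 ± 12.2% of the summed gamma subunits.

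Region accounted for between 2.72% (Cacng3) and 82.4% (Scn9a) of the summed squares of the log2 levels of a tested member, with Cacna2d3 (80.9%), Cacnb1 (80.1%), Cacng4 (79.8%) and Cacna1h (74.4%) next to Scn9a. Surgery within region accounted for 0.855% in Cacna1e, 11.5% in Cacna2d4 and 12.9% in Scn7a. These are descriptions with 16 libraries per region.

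The sample titles carry a code, D501 to D504, which has the form of a library index name and partly follows region. The duodenum had 4 libraries with D501 and 12 with D502, the ileum 7 with D501, 8 with D503 and 1 with D504, and the colon 1, 4 and 11 with D501, D503 and D504. With the index as a covariate the calls among members fell to 4, 9 and 12 in the contrasts of ileum with duodenum, colon with duodenum and colon with ileum, against 11.3%, 28% and 37.8% of all genes, and Cacna1a (ileum) and Cacna1c (ileum and colon) changed sign against the duodenum, with values of 0.49, 0.38 and 0.21. When the duodenum library of mouse 27, 1 of the 4 with D501, was also left out, the counts were 4, 9 and 13 (4.54%, 17.7% and 38.4% of all genes), and all members called without the covariate kept their direction. Still called were Cacna1h, Cacna2d1, Cacna2d3 and Scn9a between ileum and duodenum, and Cacna1a, Cacna1b, Cacna1d, Cacna1e, Cacna2d2, Cacnb1, Cacng4, Scn8a and Scn9a between colon and duodenum. Colon and duodenum shared only D501, with 1 colon library, that of mouse 12, whose codes conflict with the tissue labels. Otherwise they were linked only through the ileum. No fit with the index left out mouse 12.

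Values within an index were compared where it held both regions. In D501 the Cacna1a share was 43.7 to 49.9% in 4 duodenum and 62.6 to 70.8% in 7 ileum libraries, and in D503 it was 54.7 to 67.3% in 8 ileum and 24.7 to 30.04% in 4 colon libraries. Neither pair overlapped. Scn9a was at 1.85 to 4.72 CPM in the D501 duodenum and 0 to 0.442 CPM in the D501 ileum. Cacnb1 was at 2.56 to 9.94 CPM in the D503 ileum and 18.6 to 27.8 CPM in the D503 colon, again without overlap. The level of Cacna1a, in contrast, overlapped in D501, at 58.2 to 382 CPM in the duodenum and 134 to 390.2 CPM in the ileum.

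Of 27 genes whose products bind or modulate these channels or the related leak channel, 22 were tested. Between ileum and duodenum 2 were higher and 7 lower, between colon and duodenum 4 and 12, and between colon and ileum 4 and 9, which is 9, 16 and 13 of 22, beside 33.8%, 55.0% and 49.2% of all genes. The values of these genes were not checked with the index as a covariate, with the mouse as a block or by leaving out mice. Nalcn, the sodium leak channel, was at 5.53 ± 2.06 CPM in the duodenum and 0.653 ± 0.59 and 0.7304 ± 0.674 CPM in ileum and colon (-3.14 ± 0.39 and -2.98 ± 0.38, adjusted p = 6.02e-09 and 2.97e-09). Its partner Fam155a was lower in the same regions (-3.55 ± 0.48 and -2.31 ± 0.43), and Unc80, another partner, was lower in the colon (-0.94 ± 0.22 (adjusted p = 4.2e-04) against the duodenum and -0.76 ± 0.22 (adjusted p = 0.00447) against the ileum) but did not pass the threshold between ileum and duodenum (-0.18 ± 0.22). Unc79 passed it in none of the 3 contrasts (-0.04 ± 0.18 for the ileum and -0.31 ± 0.18 for the colon against the duodenum, -0.27 ± 0.18 between colon and ileum).

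Intracellular fibroblast growth factors bind the tail of sodium channel alpha subunits and changed in opposite directions. Fgf14 fell from 45.2 ± 11.9 to 18.2 ± 7.43 and 6.697 ± 3.21 CPM (-2.75 ± 0.19, adjusted p = 9.89e-17), and Fgf11 was lower in the colon than the ileum (-1.44 ± 0.26, adjusted p = 5.96e-06). Fgf12 increased from 1.71 ± 0.994 to 8.37 ± 3.37 CPM, with a log2 fold change of 1.71 ± 0.24 (adjusted p = 3.82e-08) between colon and ileum. Stac, an adaptor that binds L-type channels, was lower in the colon than the duodenum (-3.66 ± 0.37, adjusted p = 3.68e-12) and the ileum (-2.88 ± 0.37, adjusted p = 5.57e-09). Of the small GTPases that inhibit calcium channels, Rem2 fell from 13.4 ± 4.17 to 5.58 ± 1.84 CPM in the ileum (-1.30 ± 0.20, adjusted p = 1.42e-06), and Rrad, under 3 CPM in every library, was lower in the colon than the duodenum (-3.90 ± 0.69, adjusted p = 4.78e-06) and the ileum (-2.93 ± 0.72, adjusted p = 7.12e-04). Gem, of the same family, averaged 9.67, 9.37 and 8.56 CPM and did not pass the threshold (log2 fold changes of -0.10 ± 0.20, -0.14 ± 0.20 and -0.04 ± 0.20).

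Whether surgery or weight matching moved the channel genes was tested across the 3 regions. No member passed an adjusted p of 0.05 in any of the 3 contrasts by edgeR, DESeq2 or limma voom. For VSG against sham ad libitum the count was 0 of 25 members, against 0% of all genes by edgeR, and 1 member had an unadjusted p under 0.05, against 5.53% of all genes. For VSG against sham weight-matched both counts were 0 among the members, against 0.245% and 9.92% of all genes. For sham weight-matched against sham ad libitum they were 0 and 3 members, against 0.0529% and 6.39%. These contrasts share groups of mice and are not independent of each other. The edgeR fit had no term for the mouse, so its standard errors and p treat the libraries of a mouse as independent. With the mouse as a random block in limma voom, 0%, 0.0595% and 0.0264% of all genes were called in the 3 contrasts. The median size of the log2 fold change by edgeR was 0.20, 0.20 and 0.13 among members, and 0.10, 0.12 and 0.12 among all genes. Several tested members were at a few CPM or less, where estimates are imprecise, and the medians were not computed without them.

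For the 5 leading members the estimates were as follows. For VSG against sham ad libitum, the estimate was 0.06 ± 0.16 for Cacna1a, -0.24 ± 0.16 for Cacna1h, -0.05 ± 0.14 for Cacna2d1, 0.07 ± 0.12 for Cacnb3 and -0.11 ± 0.14 for Scn3a. For VSG against sham weight-matched it was 0.01 ± 0.16, -0.11 ± 0.16, -0.10 ± 0.14, 0.05 ± 0.12 and -0.09 ± 0.14 in the same order. None of these 10 values was farther from 0 than 2 standard errors.

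The member with the lowest p for VSG against sham ad libitum was Scn7a, at -2.10 ± 0.68 (unadjusted p = 0.00312, adjusted p = 0.537, edgeR). In the duodenum, where it was mostly counted, the 5 sham ad libitum libraries were at 0.741, 0.769, 1.703, 2.35 and 2.83 CPM, the 5 sham weight-matched libraries at 0, 0.1998, 0.735, 0.818 and 1.46 CPM and the 6 VSG libraries between 0 and 0.971 CPM (median 0.678). The groups overlapped, and the value was also low in sham weight-matched mice (-1.66 ± 0.68, unadjusted p = 0.0184). In the colon the sham ad libitum group had 9 counts, all in mouse 32, and the VSG group 1 count. Without mouse 32 the estimate over the regions was -0.59.

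For Scn8a the estimate for sham weight-matched against the ad libitum sham group was -0.42 ± 0.20 (unadjusted p = 0.0396, adjusted p = 0.774, edgeR). The lowest p for VSG against sham weight-matched was that of Cacnb1, 0.31 ± 0.17 (unadjusted p = 0.0776, edgeR).

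Within single regions 0 members passed the threshold in any of 9 contrasts by edgeR or DESeq2. By edgeR, the share of all genes called was 0.225% (duodenum), 0.0463% (ileum) and 0.0595% (colon) for VSG against sham weight-matched, 0.0132% for the sham groups in the colon, and 0% in the other 5. Members with an unadjusted p under 0.05 besides Scn7a in the colon were Cacnb1 between VSG and sham weight-matched mice in the duodenum (0.82 ± 0.31), Cacna2d2 in the ileum for VSG against sham ad libitum (-1.49 ± 0.63), and, between the sham groups in the ileum, Cacna1c (0.65 ± 0.31) and Cacna2d4 (-1.90 ± 0.85). The share of all genes with such a p was 2.45%, 6.16% and 6.28% for VSG against sham ad libitum in the duodenum, ileum and colon, 8.71%, 6.38% and 3.65% for VSG against sham weight-matched, and 6.55%, 7.85% and 3.66% between the sham groups. Their adjusted p lay between 0.307 and 0.75. In the joint test of interaction between surgery and region 0 members passed by edgeR, DESeq2 or limma voom, and 0 had an unadjusted p under 0.05, against 4.90% of all genes. Of the 22 partner genes, 0 passed the threshold in the 3 contrasts over the regions by edgeR, and 2 (VSG against sham ad libitum), 4 (VSG against sham weight-matched) and 3 (between the sham groups) had an unadjusted p under 0.05, beside 5.53%, 9.92% and 6.39% of all genes.

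**Figure D5:**
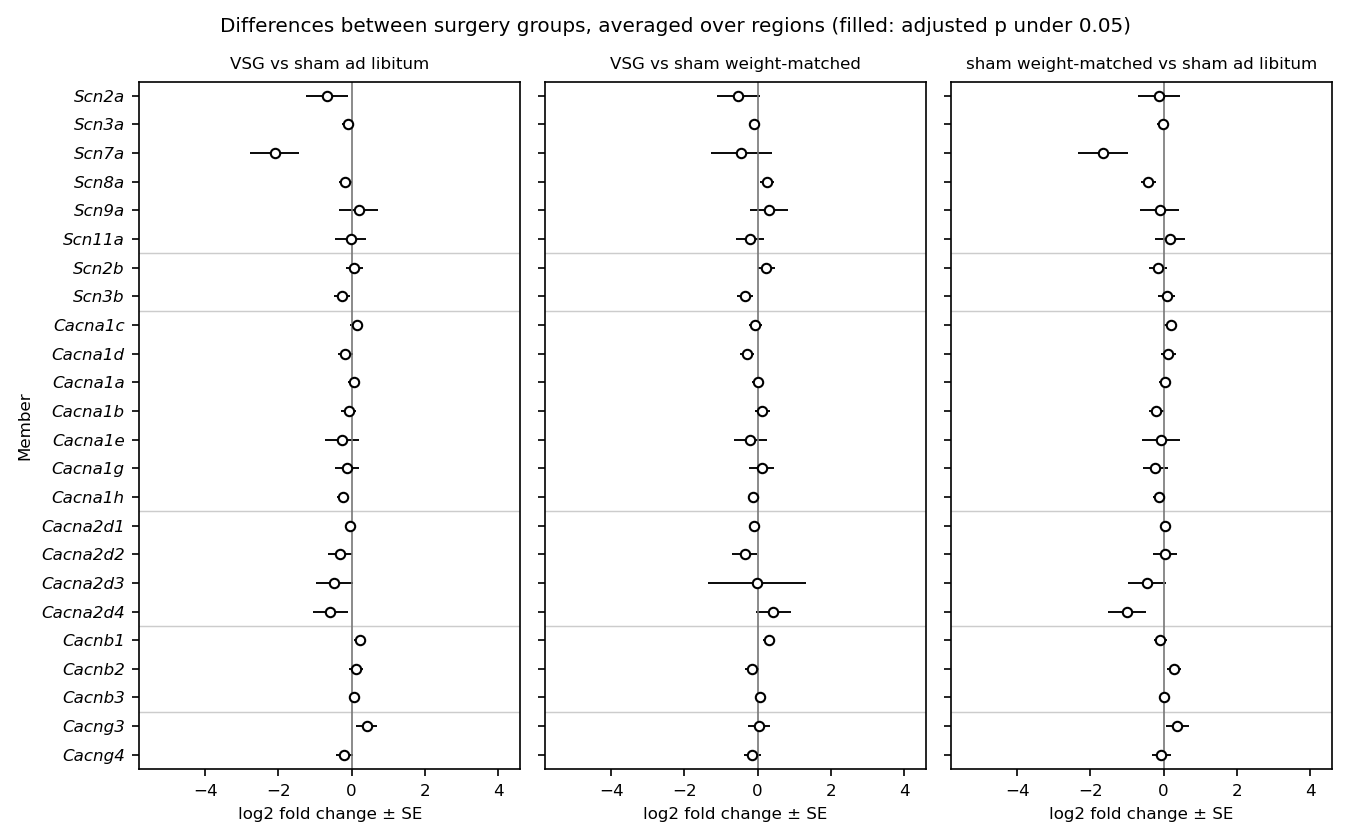
Log2 fold change with standard error (horizontal axis) of 24 of the 25 tested members (vertical axis, grouped by class) in the 3 contrasts between surgery groups, averaged over regions, on the scale used for the region contrasts. No point is filled, since no adjusted p was under 0.05, and the widest departures drawn, for Scn7a, belong to a gene with few counts.

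Group means follow for the tested members, each time for the VSG, the weight-matched sham and the ad libitum sham group in that order, with the lowest and highest SD of the 9 groups of 5 or 6 libraries. Scn3a averaged 222, 199 and 262 CPM (duodenum), 193, 199 and 164 CPM (ileum) and 108, 140.5 and 136 CPM (colon), with SDs of 26.9 to 84.8. Scn8a averaged 22.8, 21.3 and 28.4 CPM (duodenum), 14.3, 12.5 and 13.6 CPM (ileum) and 6.497, 4.79 and 7.86 CPM (colon), with SDs of 1.21 to 12.5. Scn9a averaged 3.101, 4.75 and 3.53 CPM (duodenum), 0.217, 0.256 and 0.268 CPM (ileum) and 0.3397, 0.0505 and 0.129 CPM (colon), with SDs of 0.113 to 1.96. Scn8a and Scn9a had their highest mean in the duodenum within every surgery group. Scn11a averaged 0.312, 0.513 and 0.309 CPM (duodenum), 3.59, 2.23 and 2.81 CPM (ileum) and 1.9, 3.26 and 2.79 CPM (colon), with SDs of 0.252 to 2.22. Scn2a averaged 0.355, 0.491 and 0.5503 CPM (duodenum), 0.712, 2.07 and 1.23 CPM (ileum) and 0.738, 0.559 and 1.23 CPM (colon), with SDs of 0.404 to 2.61. Scn7a averaged 0.581, 0.642 and 1.68 CPM (duodenum), 0.0426, 0.0309 and 0.213 CPM (ileum) and 0.0334, 0.131 and 0.408 CPM (colon), with SDs of 0.0664 to 0.932. Each of these averaged under 4 CPM in every group. Scn2b averaged 6.34, 5.64 and 7.15 CPM (duodenum), 19.1, 15.6 and 24.2 CPM (ileum) and 8.28, 6.95 and 4.96 CPM (colon), with SDs of 2.12 to 13.2. Scn3b averaged 9.31, 8.09 and 10.6 CPM (duodenum), 2.94, 4.66 and 3.33 CPM (ileum) and 3.73, 5.46 and 4.99 CPM (colon), with SDs of 1.22 to 3.83. Of the beta subunits, Scn2b kept its highest mean in the ileum and Scn3b its highest in the duodenum within all 3 surgery groups.

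Cacna1a averaged 326, 271 and 320.1 CPM (duodenum), 248, 238 and 186 CPM (ileum) and 96.5, 118 and 116 CPM (colon), with SDs of 20.8 to 126. Cacna1b averaged 9.74, 6.85 and 9.73 CPM (duodenum), 14.3, 13.97 and 12.7 CPM (ileum) and 16.7, 19.1 and 22.9 CPM (colon), with SDs of 2.31 to 7.82. Cacna1e averaged 0.166, 0.393 and 0.342 CPM (duodenum), 0.909, 0.616 and 0.927 CPM (ileum) and 3.66, 3.15 and 3.04 CPM (colon), with SDs of 0.102 to 2.33. In all 3 surgery groups the colon had the lowest mean of Cacna1a and the highest of Cacna1e. Cacna1h averaged 217, 191 and 241 CPM (duodenum), 57.1, 66.7 and 62.6 CPM (ileum) and 184, 227 and 251 CPM (colon), with SDs of 11.3 to 93.3. Cacna1g averaged 1.42, 1.48 and 1.52 CPM (duodenum), 3.87, 3.88 and 4.07 CPM (ileum) and 1.805, 1.29 and 1.93 CPM (colon), with SDs of 0.745 to 1.81. The low mean of Cacna1h and the high mean of Cacna1g in the ileum were likewise present in all 3. Cacna1c averaged 36.96, 36.8 and 30.1 CPM (duodenum), 25.5, 28.8 and 18.4 CPM (ileum) and 17.3, 17.6 and 22.6 CPM (colon), with SDs of 4.48 to 17.5. Cacna1d averaged 34.6, 33.9 and 44.2 CPM (duodenum), 16.7, 21.5 and 15.1 CPM (ileum) and 7.07, 10.4 and 8.77 CPM (colon), with SDs of 2.74 to 13.6. Among the L-type subunits, the duodenum had the highest mean in every surgery group.

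Cacna2d1 averaged 339.8, 324 and 363 CPM (duodenum), 164, 174 and 123 CPM (ileum) and 162, 196 and 227 CPM (colon), with SDs of 31.5 to 133. Cacna2d2 averaged 1.19, 1.36 and 0.943 CPM (duodenum), 0.665, 1.18 and 1.77 CPM (ileum) and 5.54, 5.49 and 4.97 CPM (colon), with SDs of 0.494 to 2.73. The colon mean of Cacna2d1 was lower and that of Cacna2d2 higher than the duodenum mean in each surgery group. Cacna2d3 averaged 2.98, 4.38 and 3.49 CPM (duodenum), 0.301, 0.113 and 0.2996 CPM (ileum) and 0.115, 0.1897 and 0.321 CPM (colon), with SDs of 0.0983 to 2.35. Cacna2d4 averaged 0.335, 0.146 and 0.1999 CPM (duodenum), 0.568, 0.407 and 1.58 CPM (ileum) and 1.27, 1.84 and 2.39 CPM (colon), with SDs of 0.113 to 1.55. Cacna2d3 averaged over 2 CPM in the duodenum of each group and under 1 CPM elsewhere. Cacnb3 averaged 92.05, 76.4 and 80.7 CPM (duodenum), 89.4, 91.9 and 77.6 CPM (ileum) and 95.05, 100 and 108 CPM (colon), with SDs of 1.31 to 32.5. Cacnb1 averaged 5.66, 3.23 and 4.14 CPM (duodenum), 5.78, 6.05 and 4.76 CPM (ileum) and 23.2, 20.7 and 24.4 CPM (colon), with SDs of 0.9499 to 6.02. Cacnb2 averaged 8.57, 9.77 and 6.83 CPM (duodenum), 11.02, 10.4 and 8.29 CPM (ileum) and 4.66, 6.02 and 6.02 CPM (colon), with SDs of 0.712 to 4.07. Cacnb1 averaged over 20 CPM in the colon of every surgery group and under 7 CPM in the other regions. Cacng4 averaged 2.48, 2.21 and 3.003 CPM (duodenum), 3.89, 4.05 and 3.14 CPM (ileum) and 17.5, 24.5 and 27.5 CPM (colon), with SDs of 1.08 to 14.6. Cacng3 averaged 2.41, 3.21 and 2.42 CPM (duodenum), 4.17, 3.68 and 2.63 CPM (ileum) and 3.91, 3.03 and 2.57 CPM (colon), with SDs of 0.762 to 2.91. The colon mean of Cacng4 was the highest of the 3 regions in each surgery group.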

How the data were processed

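Raw counts per gene, as deposited, were made by the authors by aligning 50-base single-end reads of stranded total RNA libraries to GRCm38 and counting on the Ensembl annotation with STAR (version 2.5.1, per the processing notes of the submitters). The strand setting of the counting is not given in the sources used here. Of 53465 gene IDs, 53360 were matched to symbols in GENCODE M21. Groups and regions were taken from the sample labels.

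All 48 libraries were fitted together with 9 means for region and surgery in edgeR 4.0.16 (TMM scaling, filterByExpr, robust quasi-likelihood test), with Benjamini-Hochberg adjustment over the 15126 genes that passed the filter. Differences were averaged over surgery groups or over regions. The study itself used DESeq2 with surgery in interaction with region. Class shares were computed from CPM per kilobase of the union of exons and compared within 15 mice by an exact two-sided sign-flip permutation test. DESeq2 1.42.0, limma 3.58.1 (voom), other scalings, filters and lengths, the mouse as a block, and leaving out each mouse were alternatives. The index as a covariate was also tried, and the fits without the duodenum library of mouse 27 or the crossed libraries of mouse 12 were chosen after seeing the data. The tests were checked on simulated data with the same spread for every gene. Log2 fold changes of 0.5 were recovered for 18.2% of changed genes between VSG and sham ad libitum and 13.98% between colon and duodenum. For changes of 1 the values were 95.3% and 94.85%. False calls made up to 6.76% of calls. Surgery differences near 0.5 would thus mostly be missed. The simulated libraries were independent of each other, the surgery change was the same in every region, and contrasts within a single region were not simulated. The recovery of changes of 1 thus does not carry over to members with a larger spread or to single regions.

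Members were described by class, and in each surgery contrast those with the lowest p or with an unadjusted p under 0.05 were named, except that a few genes are not reported here by name, though counts of members include them. The members and all gene lists were chosen with earlier results of these data known. Total counts of 4648651 to 17182463 leave genes of a few counts per library imprecise, and the floor given covers counting error alone. The 3 regions were paired by animal: over 46 pairs of libraries of a mouse, deviations from the group means correlated with a median r of 0.111 (from -0.0704 to 0.391, 2000 genes). The surgery groups hold different mice. No pair of replicates agreed within sampling noise (105 pairs, lowest chi-square per gene 8.14).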

Additional observations from a re-analysis of the deposited data

Results flagged for a closer look

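Dixon's test was applied on the log2 scale to 225 groups of 5 or 6 libraries (25 members in 9 groups). In 21 groups a library lay farther from the rest than the 95% critical value. The chance rate of about 1 in 20 assumes normally distributed values, so the 21 flags cannot be set against it. Where all other libraries of a group lacked counts, any count was flagged by construction. The duodenum library of sham weight-matched mouse 27 accounted for 6 of the 21 flags, which are thus not independent. It was at 58.3 CPM for Cacna1a (the others of its group 259.7 to 371 CPM), 10.7 for Cacna1d (33.6 to 43.8), 94.2 for Cacna2d1 (331 to 409), 3.18 for Cacnb2 (10.04 to 13.2), 20.96 for Cacnb3 (74.5 to 100.2) and 60.3 for Scn3a (200.2 to 291). All were the lowest of their group, in the library with the lowest sum of EEC markers.

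Mouse 32 (sham ad libitum) had 4 values apart from its group: 127.6 CPM for Cacna2d1 in the colon (232.5 to 272), 5.89 for Scn2a in the colon (0 to 0.141), 2.04 for Scn7a in the colon (others 0) and 1.11 for Scn11a in the duodenum (0 to 0.165). In the duodenum, Cacna2d4 was at 0 CPM in sham ad libitum mouse 19 (0.235 to 0.275) and at 0.73 in sham weight-matched mouse 29 (others 0), and Cacng4 at 0.416 in VSG mouse 25 (2.17 to 4.35). In the ileum, Cacna1d was at 26.3 CPM in sham weight-matched mouse 16 (19.6 to 21.2), Cacna1e at 3.42 in VSG mouse 25 (0.183 to 0.814), Cacna1g at 0.465 in VSG mouse 11 (3.66 to 5.61) and Scn7a at 0.154 in sham weight-matched mouse 21 (others 0). In the colon, Cacna1g was at 3.15 CPM in sham weight-matched mouse 31 (0.72 to 0.931), Scn9a at 0.252 in the same library (others 0) and at 1.83 in VSG mouse 28 (0 to 0.21), and Scn7a at 0.2004 in VSG mouse 30 (others 0). Most of these values rest on a few counts.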

How the results depend on the processing

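Of the 50 region differences called among the members, 50 were also called by DESeq2, 50 with DESeq2 size factors and 50 without the duodenum library of mouse 27. Without the ileum and colon libraries of mouse 12, 45 were. With the index as a covariate the counts were 4 of 25 between ileum and duodenum and 9 between colon and duodenum, with or without the duodenum library of mouse 27, and Cacna1a (0.49, ileum) and Cacna1c (0.38, ileum, and 0.21, colon) reversed against the duodenum when that library was kept. The cause was not tested. Leaving out each mouse gave 14 to 17, 18 to 20 and 13 to 17 calls in the 3 region contrasts. For Scn7a between VSG and sham ad libitum in the colon, the log2 fold change ranged from -4.38 (without mouse 30) to 1.36 without mouse 32, which held all 9 counts of its group.

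With the mouse as a replicate block, 17, 19 and 15 members were called between ileum and duodenum, colon and duodenum, and colon and ileum. Cacna1e between ileum and duodenum (adjusted p = 0.0707 by edgeR) and Cacna2d1 between colon and ileum (0.0506) were lost, and 48 calls remained. For the share of Scn3a, without the replicate block that pairs regions by mouse, the difference between colon and duodenum was 0.148 points. With counts not divided by length it was 1.99, 2.73 and 0.741 points (ileum against duodenum, colon against duodenum, colon against ileum), with the longest transcript as length 0.926 (colon against duodenum) and 0.0912 (colon against ileum), and leaving out each mouse it ranged from -0.00664 to 0.454, from -0.56 to 0.899 and from -0.704 to 0.539. For Cacna2d1 between ileum and duodenum it was 0.586 points with the longest transcript, and -0.248 to 0.309 leaving out each mouse. Depth limits the members of few counts, such as Scn7a and Scn2a.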
